A study of Mus musculus with 4 samples.

Results

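The proteasome is the protease that degrades ubiquitin-tagged proteins. Its subunit genes, with the genes of its activators, its inhibitor and its assembly chaperones, were taken as all symbols of the count tables that start with Psm, one of the letters a to g and a number. Psmb8, Psmb9 and Psmb10, the catalytic subunits of the interferon-induced immunoproteasome, were set apart. The rule found 47 genes of 24421, and 45 of them were counted often enough to test. It also takes Psmc3ip, which encodes a partner of the meiotic recombination machinery and no proteasome subunit, and Psme2b, a close copy of Psme2.

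The libraries are poly(A) RNA of cortical neural stem cells of C57BL/6J mice, isolated at embryonic day 17 and grown for 1 day with basic FGF and EGF. The control group (Prrc2bf/f, n = 2 libraries) had loxP-flanked Prrc2b alleles but lacked Cre. The other group (Prrc2bf/f; Nestin-Cre, n = 2 libraries) had the same alleles with a Cre recombinase under regulatory sequence of Nes, which is active in neural progenitors and their descendants. Levels are given as CPM, counts scaled to library size. A log2 fold change, ± SE, is positive where the libraries labelled knockout were higher. The labels do not say whether replicates are separate embryos or cultures. The p-values therefore reflect the spread among these 4 libraries alone, pooled in large part over all genes, and that spread may be technical.

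Each proteasome is built around a barrel, the 20S core, of rings of alpha and beta subunits, with the cutting sites on Psmb5, Psmb6 and Psmb7. A 19S cap sits on its ends. The cap has a base, with a ring of ATPases (Psmc1 to Psmc6) that unfold the substrate, and a lid, whose subunit Psmd14 removes the ubiquitin chain. The core can instead take other caps: the Psme1 and Psme2 heteromer, which interferon induces, Psme3 in the nucleus, and Psme4. In dividing and differentiating neural progenitors the proteasome clears cyclins and fate regulators, and cells that lose proteasome activity are known to raise all subunit genes together through the transcription factor Nfe2l1.

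Gene counts ranged from 25936794 to 28263272 per library, and a member that was tested had from 275 to 8668 counts in a library. Prrc2b itself stood at 588 and 594 CPM in control and at 575 and 573 CPM in the libraries labelled knockout (log2 fold change -0.04 ± 0.02, edgeR adjusted p = 0.134). Reads from undeleted exons would still be counted, so this total does not check the genotype. Uty, Ddx3y, Kdm5d and Eif2s3y, all Y-linked, had counts in both controls and 0 in both libraries labelled knockout. Xist, transcribed from the inactive X chromosome, was present in all 4 libraries, at 1673 and 1615 CPM in control and 2209 and 2119 CPM in the others. The groups thus differ in Y-linked RNA, and in every value below genotype cannot be told apart from the sex composition of the libraries. Markers of other cell types also moved. Of all genes tested 15.1% were higher and 18.1% lower. The summed level of 8 choroid plexus genes was 212 to 219 CPM in control and 1347 to 1362 CPM in the libraries labelled knockout (6 higher, 0 lower). Most of each sum was Ttr, at 178 and 186 CPM in control and 1271 and 1290 CPM in the others. Otx2 (log2 fold change 0.02) and Prlr (-0.86) did not pass. The sum of 8 mural cell and fibroblast genes was 183 to 188 against 60.5 to 64.1 CPM (1 higher, 7 lower), and that of 11 microglial genes 7.12 to 8.41 against 3.08 to 3.64 CPM (0 higher and 5 lower of 7 tested). The 8 endothelial genes summed to 25.7 to 27.5 against 20.1 to 21.1 CPM (1 higher and 2 lower of 7 tested). Among them Flt1 fell from 11.3 and 12.6 CPM to 4.14 and 4.31 CPM, while 4 of the 7 had a positive log2 fold change. Defining progenitor markers were abundant in all libraries: 8 genes summed to 7009 to 7059 CPM in control and 5991 to 5999 CPM in the other group (1 higher, 4 lower). Neuronal genes summed to 2067 to 2075 against 2379 to 2394 CPM (4 of 6 higher, 0 lower). No marker of these lists was at 0 in all 4 libraries. The part of these shifts in the proteasome values was not tested.

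Promoter windows of 4 genes are printed because they belong to the members the results turn on, the interferon-linked pair Psme1 and Psme2, the largest rise (Psmg4) and the largest fall among 19S subunits (Psmd1). They come from RefSeq (GRCm38.p6) and run 5′ to 3′ on the gene's strand from 250 bases before to 50 after a transcript start. Psme1 is at chr14:55578244-55578543 (plus strand) and Psme2 at chr14:55591052-55591351 (minus). Psmg4 is at chr13:34162714-34163013 (plus) and Psmd1 at chr1:86064369-86064668 (plus). Capitals mark an interferon-response-like motif in the Psme1 window and an antioxidant-response-like motif in the windows of Psmg4 and Psmd1. The Psme2 window holds no match to the first motif and has no capitals. The Psmg4 window also holds the first motif, which is left in lower case there.
Psme1: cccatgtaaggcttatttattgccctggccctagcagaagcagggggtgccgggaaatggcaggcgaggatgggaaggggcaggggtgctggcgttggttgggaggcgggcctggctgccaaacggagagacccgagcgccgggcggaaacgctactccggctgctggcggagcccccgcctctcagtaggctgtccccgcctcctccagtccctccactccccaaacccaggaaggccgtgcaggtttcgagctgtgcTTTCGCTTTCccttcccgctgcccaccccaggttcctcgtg
Psme2: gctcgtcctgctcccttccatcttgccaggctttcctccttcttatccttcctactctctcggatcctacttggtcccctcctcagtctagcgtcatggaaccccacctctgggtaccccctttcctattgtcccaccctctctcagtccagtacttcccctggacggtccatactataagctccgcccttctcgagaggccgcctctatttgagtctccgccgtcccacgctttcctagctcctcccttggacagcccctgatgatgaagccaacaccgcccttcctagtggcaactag
Psmg4: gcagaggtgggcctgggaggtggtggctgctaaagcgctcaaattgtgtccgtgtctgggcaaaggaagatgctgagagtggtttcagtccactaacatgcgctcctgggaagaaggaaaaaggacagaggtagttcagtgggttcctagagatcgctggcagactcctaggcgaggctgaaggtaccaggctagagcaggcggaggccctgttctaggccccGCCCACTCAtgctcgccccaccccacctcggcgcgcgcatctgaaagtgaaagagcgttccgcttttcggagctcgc
Psmd1: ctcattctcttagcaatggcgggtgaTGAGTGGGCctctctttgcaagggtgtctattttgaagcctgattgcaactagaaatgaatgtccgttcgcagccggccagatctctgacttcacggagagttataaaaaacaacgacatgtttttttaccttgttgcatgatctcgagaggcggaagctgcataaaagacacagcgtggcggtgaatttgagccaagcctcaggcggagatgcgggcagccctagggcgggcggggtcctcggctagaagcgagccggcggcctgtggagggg

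The interferon-response-like motif searched, on both strands, was GAAA, any 2 bases, and GAAA again. It was found once in the Psme1 window. Of the 39 members with a window 5 held it (12.8%; Psmb3, Psmd4, Psmd9, Psme1 and Psmg4), against 3.44% of all 32851 windows. The antioxidant-response-like motif, the kind that Nfe2l1 and Nfe2l2 bind, was searched as TGACNNNGC or TGAGNNNGC on both strands. It was in the windows of 17 members (43.6%), against 27.8% of all windows, and the share of members counts a gene with several windows once. Of those 17 genes 1 was called higher and 4 lower, against 15.1% and 18.1% of all genes tested. The CCAAT box, common in promoters of proteasome genes, was found for 14 members (35.9%), against 37.4% of all windows. Psma8, Psmb1, Psmb2, Psmb7, Psmc3, Psmd3, Psmd7 and Psmg2 had no window in the table. A match is a match of letters and says nothing of binding.

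Proteasome transcripts differed little between the groups. With the libraries labelled knockout set against control, 4 of 45 members rose and 9 fell (edgeR quasi-likelihood test, adjusted p under 0.05), or 28.9%, against 33.1% of all 15012 genes tested (15.1% higher and 18.1% lower). The members' share is thus near the background. The differences were small: all 45 lay within 1.2-fold, as did 77.1% of all genes tested. The median log2 fold change of the members was 0.03 and that of all genes 0.0047, and the median absolute value was 0.067 against 0.117. The median SE was also smaller for the members, 0.037 against 0.060. The part of this precision in the smaller sizes was not tested. The summed level of the 47 genes was 4497 and 4472 CPM in control and 4493 and 4463 CPM in the libraries labelled knockout, so the groups overlapped. In these bulk libraries fewer cells of a type and less RNA per cell cannot be told apart.

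**Figure D1:**
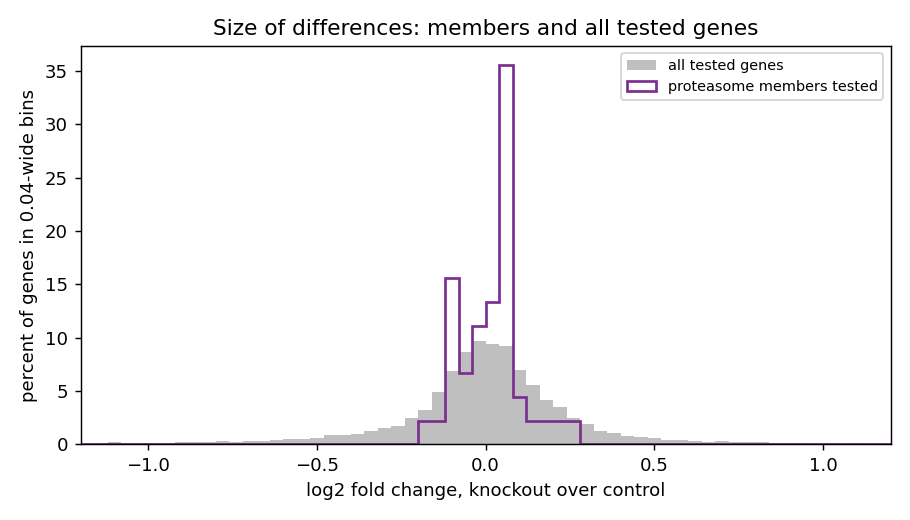
Log2 fold changes (x axis) of all 15012 tested genes (grey) and of the 45 tested members (line), as percent of each set per bin; changes beyond 1.2 on the x axis are not drawn. The members lie between -0.19 and 0.26.

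The calls depended on the tool and on single libraries. DESeq2 called 1 member higher (Psmb4) and 2 lower (Psmd1 and Psmd2), against 7.03% of all genes higher and 10.9% lower, so the other 10 calls were lost. After scaling to the upper quartile 12 members were higher and 3 lower (19.6% and 15.2% of all genes), and correction for GC content and length gave 9 higher and 6 lower (20.5% and 14.6%). A threshold of 0.01 left 3 members higher and 2 lower (9.93% and 13.6% of all genes). A test against a 1.2-fold change called 0 members, with 0 at an unadjusted p under 0.05 (1.86% of all genes higher, 5.06% lower). That test asks another question. As all 45 estimates lay within 1.2-fold, it could hardly call a member. Without control replicate 1, control replicate 2 or knockout replicate 2 the members called lower dropped from 9 to 5, and without knockout replicate 1 to 4. In that order of omission, the last included, 15.1%, 16%, 14.7% and 14.7% of all genes were lower and 11.9%, 12.1%, 11.3% and 11.4% higher. With a replicate block 6 members were higher and 9 lower, against 16.3% and 19.2% of all genes. Whichever library was left out, 3 genes were called: Psmb4, Psmd1 and Psmg4. The groups did not overlap in CPM for 32 members (71.1%), against 64.9% of all genes tested.

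**Figure D2:**
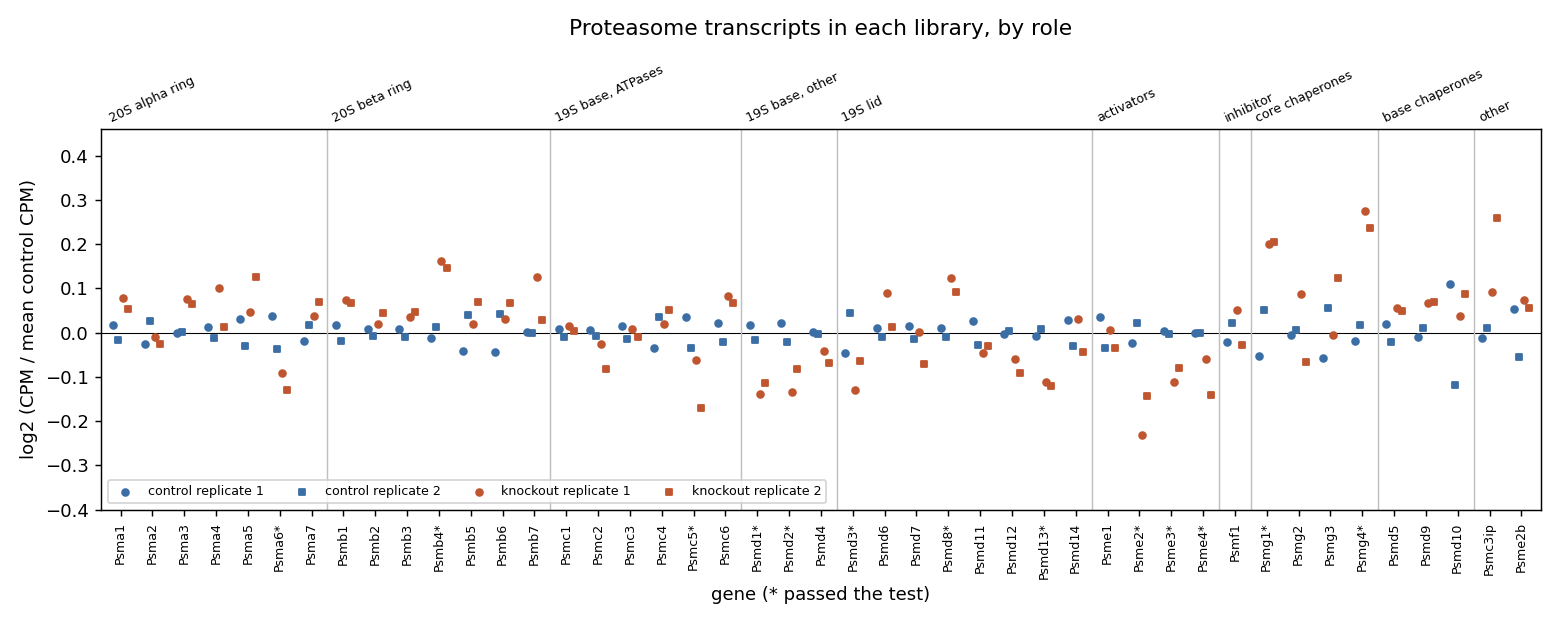
Level of each tested member in each library as log2 of its CPM over the control mean (y axis), by role; blue is control and red the libraries labelled knockout, circles and squares are replicates 1 and 2, and an asterisk marks a gene that passed the test. Most points lie within 0.1 of the control mean; Psmg4, Psmg1 and Psmb4 lie above it and Psme2 below it in both libraries labelled knockout.

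Of the 14 tested genes of the 20S core 1 was higher and 1 lower (15.1% and 18.1% of all genes), and 12 had a positive log2 fold change. Their summed level was 1582 and 1583 CPM in control and 1648 and 1637 CPM in the libraries labelled knockout. Of its 7 tested alpha subunit genes 1 was lower and 0 higher, and of its 7 tested beta subunit genes 1 was higher and 0 lower. The exception among the beta genes was Psmb4, a structural subunit without a cutting site, which rose from 173 and 176 CPM in control to 195 and 193 CPM. The groups were well apart, with a log2 fold change of 0.15 ± 0.03 (an 11.2% rise, edgeR adjusted p = 7.0e-05, DESeq2 adjusted p = 0.002). Psmb4 lies on chromosome 3 from 94884093 to 94886961 (mm10, minus strand), and its call held in 14 of 15 alternatives, all except the test against a 1.2-fold change.

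The alpha ring gene Psma6 fell from 127 and 120 CPM to 116 and 113 CPM (-0.11 ± 0.03, edgeR adjusted p = 0.0135). Its call was lost without control replicate 1 or without knockout replicate 2, with upper quartile scaling and with DESeq2. The most abundant alpha gene, Psma7, had 144 and 148 CPM in control and 150 and 153 CPM in the other group (0.05 ± 0.03, adjusted p = 0.211). Psma5 had 73.3 and 70.3 against 74.2 and 78.3 CPM (0.09 ± 0.04, adjusted p = 0.106). In both genes the groups did not overlap, but neither passed. Both passed with upper quartile scaling, and Psma7 also after GC and length correction.

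The 3 genes of the cutting subunits did not pass. Psmb7, of the trypsin-like site, had 144 CPM in both controls against 157 and 147 CPM (0.08 ± 0.03, adjusted p = 0.0636). It passed with upper quartile or total count scaling, with the replicate block, after GC and length correction, and without knockout replicate 2. Psmb5, of the chymotrypsin-like site, gave 0.04 ± 0.05 (95% interval of the ratio 0.957 to 1.11) and Psmb6, of the caspase-like site, 0.05 ± 0.03 (0.986 to 1.08). In both the groups overlapped. The tissue-restricted members were at the floor. Psma8, of the testis core, had at most 4 counts in a library, and Psmb11, of the thymic core, had 1 count in 1 library, so no fold is given.

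Of the 17 tested genes of the 19S cap 5 were lower and 1 higher (18.1% and 15.1% of all genes), and 11 had a negative log2 fold change. Their summed level was 2318 and 2294 CPM in control and 2250 and 2237 CPM in the libraries labelled knockout. Both non-ATPase scaffold genes of the base fell. Psmd2, the most abundant of all members, went from 317 and 308 CPM to 284 and 295 CPM (-0.11 ± 0.03, edgeR adjusted p = 0.0017). Psmd1 went from 215 and 210 CPM to 193 and 196 CPM (-0.13 ± 0.03, adjusted p = 0.00066, DESeq2 adjusted p = 0.0127). Psmd1 lies on chromosome 1 from 86064387 to 86139151 (plus strand), and 553 bp of its annotated exons overlap Htr2b on the opposite strand or Gm21972 on the same strand. The Psmd1 call held in 14 of 15 alternatives, all except the 1.2-fold test, and that of Psmd2 was also lost without knockout replicate 1. The ubiquitin receptor gene Psmd4 had 109 CPM in both controls and 106 and 104 CPM in the other group (-0.05 ± 0.03, adjusted p = 0.248).

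Of the 6 ATPase genes 1 was lower and 0 higher (18.1% and 15.1% of all genes). Psmc5 had 94.0 and 89.5 CPM in control against 87.9 and 81.4 CPM (-0.11 ± 0.04, edgeR adjusted p = 0.0259), with only a narrow gap between the groups. Its call was lost without control replicate 1 or knockout replicate 2, with upper quartile scaling and with no filter on low counts. Psmc6 had 125 and 121 against 130 and 129 CPM (0.08 ± 0.03, adjusted p = 0.0816), and passed with upper quartile scaling (adjusted p = 0.0157) and after GC and length correction (adjusted p = 0.0081). Psmc1, the most abundant of the ring, had 185 and 183 against 186 and 185 CPM, with overlapping groups and a log2 fold change of 0.01 ± 0.03 (adjusted p = 0.836).

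Of the 8 lid genes taken by the rule 2 were lower and 1 higher (18.1% and 15.1% of all genes). Sem1, a lid gene outside the rule, is described below. Psmd3 fell from 199 and 211 CPM to 187 and 196 CPM (-0.10 ± 0.03, edgeR adjusted p = 0.015). The higher knockout library came close to the lower control, and the call was lost without control replicate 2 or knockout replicate 1. It was also lost with upper quartile scaling, with no filter on low counts and after GC and length correction (adjusted p = 0.141). Psmd13 fell from 86.6 and 87.6 CPM to 80.7 and 80.2 CPM (-0.12 ± 0.04, adjusted p = 0.0165), a call lost without control replicate 2 or either knockout replicate. It was also lost with upper quartile scaling and after GC and length correction (adjusted p = 0.12). Annotated exons of Psmd13 share 342 bp with Sirt3 on the opposite strand. Psmd8 rose from 134 and 133 CPM to 145 and 142 CPM (0.11 ± 0.03, adjusted p = 0.0087), a call lost without control replicate 2 or knockout replicate 1. Psmd14, the deubiquitinase, gave -0.0047 ± 0.04 (adjusted p = 0.94), with a 95% interval of the ratio from 0.946 to 1.05. The remaining lid genes ran from -0.07 (Psmd12) to 0.05 (Psmd6) and did not pass.

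Core and cap can also be compared without any scaling, as a ratio within a library. This comparison was chosen after the values of the single genes were seen. Summed counts of the 19S genes, without Sem1 and Adrm1, were 1.47 and 1.45 times those of the 20S genes in control. In both libraries labelled knockout they were 1.37 times those of the 20S genes. The groups did not overlap. A ratio inside the core did not overlap either. Alpha counts were 0.917 and 0.901 of beta counts in control, and 0.876 and 0.877 in the libraries labelled knockout. Absence of overlap was common: it held in CPM for 64.9% of all genes tested. The smallest two-sided exact permutation p that 2 against 2 libraries allow is 0.333, so no p is given. The median log2 fold change was 0.06 for 14 core genes and -0.04 for 17 cap genes, against 0.0047 for all genes. After correction for GC content and length they were 0.033 and -0.026, and that of all genes moved to 0.032. The core median was then close to that of all genes, and the cap median stayed below it. Cap genes had longer coding transcripts (median 1819 bp) than core genes (median 1162.5 bp), but the correction used annotated exon length, another measure. The part of length in the core and cap values was not tested. When each library was left out in turn the core median ran from 0.04 to 0.06 and the cap median from -0.06 to -0.02.

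**Figure D3:**
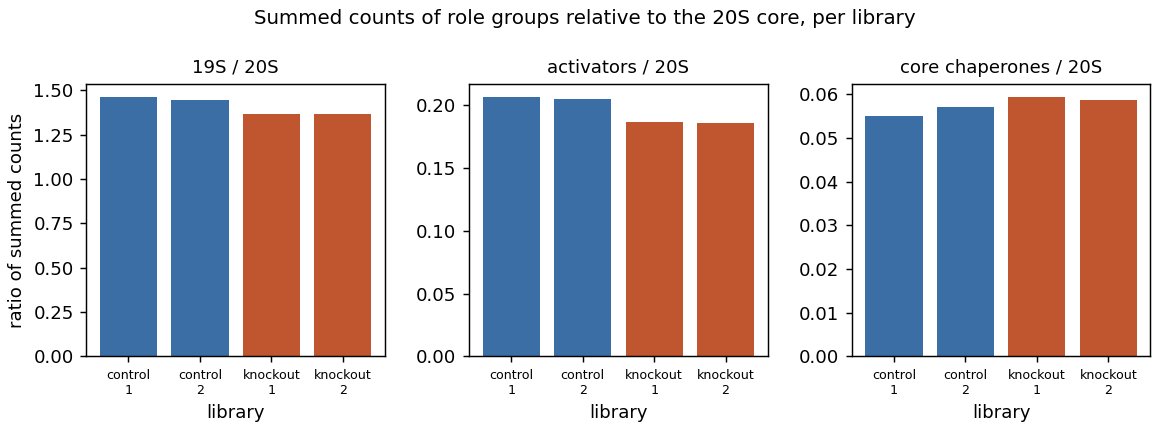
Summed raw counts of 3 role groups divided by those of the 20S core genes (y axis, from 0) in each library (x axis); blue bars are control, red bars the libraries labelled knockout. The 19S and activator ratios are lower in both libraries labelled knockout than in both controls, and the core chaperone ratio is higher.

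Of the alternative caps 3 of 4 genes were lower and 0 higher (18.1% and 15.1% of all genes). Psme2 fell from 30.7 and 31.7 CPM to 26.6 and 28.2 CPM, the largest fall of all members at 12.2% (-0.19 ± 0.06, edgeR adjusted p = 0.0134). Its partner in the same heteromer, Psme1, had 55.1 and 52.5 CPM in control and 54.0 and 52.6 CPM in the other group. Those groups overlapped, and Psme1 gave -0.01 ± 0.05 (adjusted p = 0.862) with a 95% interval of the ratio from 0.929 to 1.06. That interval and the one of Psme2, from 0.807 to 0.955, overlap, and the difference between the pair was not tested. Counts of Psme1 were 1.80 and 1.66 times those of Psme2 in control and 2.03 and 1.86 times in the libraries labelled knockout.

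The pair lies on chromosome 14, Psme1 from 55578123 to 55581529 on the plus strand and Psme2 from 55587441 to 55591113 on the minus strand. The Psme2 call was lost with DESeq2 (adjusted p = 0.171) and without control replicate 2 or knockout replicate 1. Of the 31-base words in Psme2 transcripts 33.5% also occur in those of its copy Psme2b, and of those in Psme2b 76.5% occur in Psme2. Reads could have been split or discarded, so the values of both genes are uncertain. Psme2b had 10.6 and 9.79 CPM in control against 10.7 and 10.6 CPM (0.07 ± 0.10, adjusted p = 0.643). Its 95% interval of the ratio, from 0.914 to 1.201, overlaps that of Psme2, and the difference between these copies was not tested.

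Psme3, the nuclear activator, fell from 133 and 132 CPM to 122 and 125 CPM (-0.10 ± 0.03, edgeR adjusted p = 0.0216), and lost its call without control replicate 1 or knockout replicate 1 and with upper quartile scaling. Psme4, which is linked to histone turnover, fell from 109 CPM in both controls to 104 and 98.5 CPM (-0.10 ± 0.04, adjusted p = 0.0313), and lost it without either control replicate or knockout replicate 2. The Psme4 call was also lost with upper quartile scaling, with no filter on low counts and after GC and length correction (adjusted p = 0.239). Activator counts summed to 0.207 and 0.205 of the 20S counts in control and to 0.186 in both libraries labelled knockout. The inhibitor gene Psmf1 had 41.5 and 42.7 CPM in control and 43.6 and 41.3 CPM in the other group, with overlapping groups and a log2 fold change of 0.01 ± 0.05 (adjusted p = 0.88).

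The assembly chaperones held the 2 largest rises of all members. Psmg4, a chaperone of the alpha ring that works with Psmg3, rose from 21.4 and 21.9 CPM to 26.2 and 25.5 CPM. That is 19.4% higher (0.26 ± 0.06, edgeR adjusted p = 0.002), with the groups well apart. DESeq2 did not call it (adjusted p = 0.0614), and neither did the 1.2-fold test, while the other 13 alternatives did. Psmg1, which works with Psmg2, rose from 19.8 and 21.3 CPM to 23.6 and 23.7 CPM (0.20 ± 0.07, adjusted p = 0.0196), a call lost without control replicate 1 or either knockout replicate and after GC and length correction (adjusted p = 0.0721). Their partners did not pass. Psmg2 had 28.3 and 28.5 against 30.2 and 27.1 CPM (0.02 ± 0.06, adjusted p = 0.881), and Psmg3 gave 0.06 ± 0.08 (adjusted p = 0.611). Psmg4 is on chromosome 13 from 34162964 to 34178173 (plus strand).

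Of the 3 base chaperones 0 passed, against 33.1% of all genes. Their log2 fold changes lay between 0.05 and 0.07, with unadjusted p above 0.05 for each. Psmd5 had 55.4 and 53.9 against 56.8 and 56.6 CPM (adjusted p = 0.398). Psmd9 had 40.1 and 40.7 against 42.3 and 42.4 CPM (adjusted p = 0.323), and it passed after GC and length correction. Annotated exons of Psmd9 overlap the antisense gene Gm26745 by 1849 bp. Psmd10, which is X-linked, had 20.6 and 17.6 CPM in control and 19.6 and 20.3 CPM in the other group, with overlapping groups (0.06 ± 0.08, adjusted p = 0.562). Psmc3ip, no subunit, had 14.9 and 15.2 against 16.02 and 18.0 CPM (0.18 ± 0.08, adjusted p = 0.0944), and passed with upper quartile scaling and without knockout replicate 1. It shares 385 bp of exon with Mlx on the opposite strand.

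Levels of the subunit transcripts were unequal even per length. Per kilobase of annotated exon, the 31 tested genes of the core and cap ran in control from 15.7 CPM (Psmd11) to 100.1 CPM (Psma6), with a median of 41.2. Per kilobase of the longest coding transcript they ran from 34.8 CPM (Psma3) to 171 CPM (Psmb6), with a median of 68.7. The order thus turned on the length used. On the second scale Psmb5 stood at 43.8 CPM per kilobase in control and 45.2 in the other group, below the other cutting subunits Psmb6 (171 and 177) and Psmb7 (124 and 131). On the first scale it stood at 43.8 in control, against 72.9 for Psmb6 and 42.1 for Psmb7.

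Of the 3 immunoproteasome genes 2 fell, by far more than any constitutive member, and 0 rose (18.1% and 15.1% of all genes). Psmb8 fell from 8.82 and 9.37 CPM to 3.15 CPM in both libraries labelled knockout (-1.53 ± 0.13, edgeR adjusted p = 5.8e-12) and Psmb9 from 3.71 and 3.37 CPM to 1.34 and 1.96 CPM (-1.11 ± 0.21, adjusted p = 4.4e-05), while Psmb10 overlapped (-0.03 ± 0.07, adjusted p = 0.799). Of 10 interferon response genes 9 were lower and 0 higher (18.1% and 15.1% of all genes), with a median of -1.60 against 0.0047 over all genes. Usp18, an interferon-induced protease, gave -2.33 ± 0.19 (adjusted p = 1.4e-12), and Nlrc5, an activator of antigen presentation genes, -1.78 ± 0.18. Microglial markers, whose summed levels are given above, were lower in the same libraries, and their part in these values was not tested. Psme1, which belongs to the same interferon-induced set, had the smallest log2 fold change of the 4 activators.

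Of 9 genes that control the subunit genes or their regulator Nfe2l1 4 were lower and 1 higher (18.1% and 15.1% of all genes). Nfe2l1, which encodes the transcription factor that raises subunit genes when proteasome activity drops, fell from 249 and 248 CPM to 208 CPM in both libraries labelled knockout (-0.25 ± 0.03, edgeR adjusted p = 1.4e-09). Nfe2l2, the master regulator of antioxidant genes, fell from 168 and 174 CPM to 115 and 113 CPM (-0.58 ± 0.03, adjusted p = 2.1e-17). The groups were far apart in both. The scarce relative Nfe2l3 rose from 3.98 and 3.51 CPM to 5.48 and 5.81 CPM (0.59 ± 0.15, adjusted p = 0.0014). Ddi2, the protease that cuts the Nfe2l1 protein into its active form, fell from 20.6 and 20.4 CPM to 16.7 and 18.4 CPM (-0.22 ± 0.07, adjusted p = 0.0172). That call was lost with DESeq2, after GC and length correction, and without control replicate 1 or knockout replicate 1. Vcp, the ATPase that extracts Nfe2l1 from the endoplasmic reticulum, gave -0.07 ± 0.02 (adjusted p = 0.0215) and lost its call without control replicate 1 or either knockout replicate, with upper quartile scaling, with DESeq2 and after GC and length correction.

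Antioxidant targets of Nfe2l2 were lower for 7 of 8 and higher for 0 (18.1% and 15.1% of all genes), with a median of -0.39. The cystine transporter gene Slc7a11 fell from 48.4 and 50.8 CPM to 22.2 and 20.6 CPM (-1.21 ± 0.06, edgeR adjusted p = 1.5e-19). The sulfiredoxin gene Srxn1 gave -0.93 ± 0.05 and the thioredoxin reductase gene Txnrd1 -0.42 ± 0.03. Nqo1 did not pass (0.02 ± 0.11, adjusted p = 0.92). Over the same libraries the 20S core genes had a median of 0.06.

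Among 12 proteasome cofactor genes, 5 were lower and 1 higher (18.1% and 15.1% of all genes). The riser was Sem1, listed as Shfm1, which encodes the smallest lid subunit and is not matched by the symbol rule. It went from 77.1 and 83.6 CPM to 97.7 and 98.3 CPM (0.29 ± 0.04, edgeR adjusted p = 2.2e-07). Zfand5, a proteasome-activating zinc finger gene, fell from 156 and 154 CPM to 137 and 129 CPM (-0.22 ± 0.03, adjusted p = 1.3e-06). Ecpas, listed as AI314180 and encoding a clamp between core and cap, gave -0.18 ± 0.03 (adjusted p = 4.0e-05), and the ubiquitin ligase gene Ube3c, which acts on the proteasome, -0.18 ± 0.04 (adjusted p = 8.3e-05). Adrm1, the other ubiquitin receptor of the base, gave -0.14 ± 0.04 (adjusted p = 0.0042) and lost its call with DESeq2 and without control replicate 2 or knockout replicate 2.

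Shuttle factors, which carry ubiquitinated proteins to the proteasome, were lower for 4 of 7 and higher for 0 (18.1% and 15.1% of all genes). Sqstm1, which also serves autophagy and is an Nfe2l2 target, fell from 328 and 327 CPM to 279 and 286 CPM (-0.21 ± 0.03, edgeR adjusted p = 2.0e-08). Rad23b gave -0.13 ± 0.03 (adjusted p = 0.00019), and the third gene by p, Ddi2, is described above. Of the 6 ubiquitin and E1 enzyme genes 3 were higher and 1 lower (15.1% and 18.1% of all genes). Rps27a rose from 371 and 380 CPM to 443 and 441 CPM (0.23 ± 0.02, edgeR adjusted p = 4.8e-10). It encodes ubiquitin fused to a ribosomal protein, a class with many pseudogenes, so its value is uncertain where reads could be split. The E1 gene Uba1 fell from 677 and 669 CPM to 627 and 626 CPM (-0.10 ± 0.02, adjusted p = 0.00032).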

How the data were processed

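The authors deposited raw counts, whole numbers for each gene symbol. HISAT2 2.2.1, HTSeq 0.12.4, DESeq2 1.26.0 and the mm10 build are named in the submitters' processing notes. The annotation and strand setting of the counting were not given in the sources used here. Overlapping genes therefore cannot be told apart. Summary lines of reads assigned to no gene (25.2% to 26.1% of entries) were left out, among them 4.86% to 5.19% that mapped to several places. Genotypes were compared in all 4 libraries with edgeR 4.0.16 (R 4.3.3): filterByExpr, trimmed mean of M values scaling, quasi-likelihood F test with legacy turned off, and Benjamini-Hochberg adjustment over 15012 genes. SE was taken as the absolute log2 fold change divided by the root of F, and 95% intervals use 36.3 degrees of freedom. Of these, 34.3 (the median over genes) come from the spread pooled over all genes tested. CPM are scaled by the same factors. A floor of 3 counts stands for 0.106 to 0.115 CPM and covers counting error only. Libraries of a group differed more than sampling noise (chi-square per gene 1.96 and 2.20, against 20.4 to 21.2 between groups).

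Gene positions and lengths are from GENCODE M21 (GRCm38, the mm10 assembly), which held 95.7% of the symbols. Members, lists and alternatives were chosen with earlier results of these data known. Named in full are the activators, the inhibitor, Psmc3ip, in each role the members with the 2 smallest p and the highest CPM, and the 3 largest rises and falls; of each pathway list the 3 smallest p (5 for cofactors and control genes), of which some are not reported here. The other genes with values were named after their values were seen: Psmd4, Psmd14, Psmb5, Psmb6, Psmd12, Psmd6, Psmd11, Psma3, Psmg3, Psmd10, Nqo1 and, in a plot, Hmox1. Paaf1 is not analysed here. The fit was tested on simulated counts for 14891 genes of this comparison: 86% of 50 genes changed 1.2-fold and 96% of 50 changed 1.5-fold were recovered, with 10 false calls. Alternatives were other scalings and filters, the legacy fit, DESeq2 1.42.0, voom of limma 3.58.1, a replicate block, a spline correction for GC content and length, a threshold of 0.01, a test against 1.2-fold, and omission of each library.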

Additional observations from a re-analysis of the deposited data

How the results depend on the processing

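Psmb4 and Psmd1 kept direction and call in the 14 alternatives that test for any difference. The other 11 of the 13 called members kept their direction in all 15 but lost the call in at least 1 of the 14. DESeq2 called 1 member higher and 2 lower (1055 and 1642 of all genes), upper quartile scaling 12 and 3, and GC and length correction 9 higher. The edgeR test against a 1.2-fold change called 0 members in either direction, with 0 at an unadjusted p under 0.05, and 279 genes higher and 760 lower among all genes. DESeq2, which tests for any difference, called 3. A threshold of 0.01 left 3 members higher and 2 lower (1490 and 2045 of all genes). Leaving out each library gave 3 to 4 members higher and 4 to 5 lower, 1738 to 1843 genes higher and 2249 to 2442 lower. The ratio of the highest to the lowest subunit per length was 6.38 by exon length and 4.91 by coding transcript. The cause of these shifts was not tested. Among the genes named by rule, those that changed sign under some setting were called under none. For the other members the sign under each setting is not reported here. Psme1 turned to 0.014 with upper quartile scaling and 0.0058 without knockout replicate 2, and ran from -0.050 to 0.021 over the 4 omissions. Psmf1 turned to -0.0093 without control replicate 1, and ran from -0.029 to 0.051 over the 4 omissions. Psmg2 turned to -0.036 after GC and length correction and ran from -0.067 to 0.088 over the omissions. Psmc1 turned to -0.021 after that correction and ran from -0.00084 to 0.019 over the omissions, and Psme2b to -0.018 after it. Psmb10 ran from -0.14 to 0.095 over the omissions. Deviations of same-numbered libraries did not correlate (-0.0165), so the replicate number was not taken as pairing; the replicate block gave 6 members higher and 9 lower. Depth limits the scarce members: the SE was 0.097 for Psme2b, the least counted of those tested, and 0.027 for Psmd2, the most counted, and Psma8 and Psmb11 could not be tested.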
